A study of Mus musculus with 12 samples.

Results

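Bile acid synthesis and its control by the bile acid receptor FXR were followed through 10 genes in mouse liver: the synthesis enzymes Cyp7a1, Cyp7b1, Cyp8b1 and Cyp27a1, the conjugation enzymes Baat and Slc27a5, the nuclear receptors Nr1h4 (FXR) and Nr0b2 (SHP), and the FGF receptor Fgfr4 with its partner Klb (Klotho beta). The genes were listed by name and found through the symbols of the platform annotation, with 1 probe set each, named by the Entrez Gene number (23957_at for Nr0b2, 13122_at for Cyp7a1). All 10 were found among 16475 probe sets, and all 10 were among the 6683 that reached a log2 value of at least 4 on at least 3 arrays and were tested.

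The study asked which liver genes respond to hepatocyte growth factor (HGF), the ligand of the receptor Met, and how the response differs when hepatocytes lack Met. It used 12 Affymetrix arrays in 4 groups of 3, taken here as 1 array per mouse. Controls carried a loxP-flanked Met gene without a stated Cre (c-MetloxP/loxP), and knockouts (c-MetDhepa) carried Cre under the control of albumin regulatory sequences. In these crosses Cre came either from Alfp-Cre, which combines albumin and AFP regulatory sequences and is active in the embryo, or from Alb-Cre, active from 2 weeks after birth, and the labels do not say which line each mouse had. Liver cells would keep Met where Cre was active neither in them nor in their precursors. In each genotype 1 group received 2 µg of recombinant mouse HGF into the peritoneum 2 hours before and 1 group was unstimulated; the labels also mention NaCl, so whether unstimulated mice were injected is unclear. Age, sex and strain background are not given in the sources used here. The replicates of a group are taken as separate mice, and the tests measure the spread between them. Whether same-numbered arrays of a genotype are pairs is not settled.

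Values are deposited GCRMA intensities taken as log2(intensity + 1), called log2 values here, on which differences of dim genes are understated. The arrays had 37.9% to 38.4% of probe sets at or above 4 and pairwise correlations from 0.914 to 0.992 across probe sets, which are not independent of each other. The 7 measured hepatocyte markers summed to intensities of 78000 to 84700 on all arrays, while the cholangiocyte markers Krt7, Krt19, Epcam and Cftr stayed below a log2 value of 4 on every array. The Met probe set had means of 6.74 ± 0.11 and 6.80 ± 0.21 in controls and 6.98 ± 0.26 and 6.77 ± 0.57 in knockouts (SD, n = 3 each, without and with HGF); which part of the transcript it reads is unknown, so it checks nothing about the deletion. Control arrays were numbered 1 to 6 and knockout arrays 7 to 12, so genotype and array order cannot be told apart. Knockout arrays stood apart within their groups: Tnfaip3, an early gene of NF-kappaB signalling, read 3.41, 10.22 and 2.45 without HGF and 3.74, 2.44 and 9.59 with HGF (replicates 1 to 3), against 2.14 to 2.38 in unstimulated controls and 9.67 to 10.82 in controls given HGF. Of 14 inflammatory and acute-phase genes, 13 on the array labelled knockout without HGF, replicate 2, were nearer to the mean of the HGF-treated controls than to that of the unstimulated ones, and on the array labelled knockout with HGF, replicate 2, 13 of 14 were nearer to the unstimulated mean. Cxcl1, for example, read 11.70 on the first and 7.26 on the second, and Socs3 8.64 and 5.36. Measured against controls, the first thus read like an HGF array and the second like an unstimulated one. The second does not by itself go against its label, because knockout hepatocytes are meant to lack Met. Of the other knockout arrays, replicates 1 and 3 without HGF had 0 of 14 genes nearer to the HGF-treated mean. With HGF, replicate 1 had 5 of 14 and replicate 3 had 14 of 14. Whether labels of the replicate 2 arrays were exchanged was not tested, and what every HGF value in the knockouts means depends on it. The main knockout results are therefore also given without both replicate 2 arrays. Knockout replicate 3 with HGF stayed in those fits.

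Bile acids are made from cholesterol in hepatocytes. The classic pathway starts with Cyp7a1, the rate-limiting 7α-hydroxylase, and Cyp8b1 adds the 12α-hydroxyl group that makes cholic acid; the alternative pathway runs through the mitochondrial Cyp27a1 and the oxysterol 7α-hydroxylase Cyp7b1. Bile acids returning to the liver activate FXR, which induces SHP, a receptor without a DNA-binding domain that represses Cyp7a1 and Cyp8b1 by binding LRH-1 (Nr5a2) and HNF4α on their promoters. FGF15, made in the ileum, acts on hepatocytes through FGFR4 and Klotho beta and represses Cyp7a1 as well.

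RefSeq promoter sequences of the GRCm38.p6 build matched 6 of the 10 genes (Cyp27a1, Cyp8b1, Fgfr4, Klb, Nr0b2 and Nr1h4). The 250 bases before the start site are shown for Nr0b2, which had the largest difference with HGF, and for Cyp8b1, because both hold the core of the LRH-1 site. Capitals mark matches to the LRH-1 core CAAGGNCA, the E-box CACGTG, the TATA box TATAAA, the HNF4 site CAAAGTCCA and an NF-kappaB site, taken as GGGA followed by any 4 bases and CC. Nr0b2 lies at chr4:133553126-133553375 on the plus strand and Cyp8b1 at chr9:121916306-121916555 on the minus strand; both are printed 5′ to 3′ towards the start.
Cyp8b1: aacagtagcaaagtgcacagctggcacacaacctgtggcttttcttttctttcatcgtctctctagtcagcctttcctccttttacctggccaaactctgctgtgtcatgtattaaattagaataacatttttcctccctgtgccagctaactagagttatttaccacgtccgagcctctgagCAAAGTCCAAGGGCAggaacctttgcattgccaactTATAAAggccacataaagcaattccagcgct
Nr0b2: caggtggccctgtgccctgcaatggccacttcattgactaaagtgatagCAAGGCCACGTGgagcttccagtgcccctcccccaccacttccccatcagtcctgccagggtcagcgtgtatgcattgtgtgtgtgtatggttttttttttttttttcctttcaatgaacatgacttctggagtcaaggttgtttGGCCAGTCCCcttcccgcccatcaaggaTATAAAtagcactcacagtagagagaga

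In Nr0b2 the LRH-1 core ran from 201 to 194 bases before the start and shared 2 bases with the E-box at 195 to 190; the NF-kappaB site lay at 56 to 47 on the opposite strand and the TATA box at 28 to 23. In Cyp8b1 the HNF4 site at 67 to 59 shared 2 bases with the LRH-1 core at 60 to 53, and the TATA box lay at 31 to 26. Both strands of 32851 promoter windows of this length were searched: 5.53% held the LRH-1 core, 0.384% the HNF4 site, 6.02% the E-box, 12.4% the TATA box and 17.6% the NF-kappaB site. The other motifs searched were AGGTCA (nuclear receptor hexamer, in 14% of windows), the FXR inverted repeat, that hexamer followed after 1 base by its reverse complement (in 0.00609%), and the D-box TTATGTAA (in 0.819%). Among the 6 promoters the hexamer was found in Nr1h4, and Fgfr4 held an NF-kappaB site. These matches are descriptions of letters, not binding sites.

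Of the 10 genes, the one with the largest difference between control livers with and without HGF was Nr0b2. It read 8.92, 8.69 and 9.02 in the 3 unstimulated controls and 3.99, 4.27 and 5.76 in the 3 controls given HGF. Every HGF array was more than 2 log2 units below every unstimulated array, and 1 of the HGF values lay under the filter's minimum of 4. The difference was -4.20 log2 units (SE 1.12, 95% interval -6.69 to -1.72), an 18.4-fold lower level. In the limma fit of all 12 arrays this did not pass the threshold (adjusted p = 0.103). That SE pools the spread of all 4 groups, the knockout arrays included; in a fit of the 6 control arrays alone Nr0b2 fell by the same amount with an SE of 0.44 (adjusted p = 0.00202).

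Cyp7a1 was also lower in the controls given HGF. It read 8.75, 8.89 and 8.22 without HGF and 6.59, 7.38 and 7.82 with HGF. The groups did not overlap, and the HGF arrays spanned 1.23 log2 units. The difference was -1.36 (SE 1.09, adjusted p = 0.518) with all 12 arrays, a 2.56-fold lower level. With the control arrays alone the same difference had an SE of 0.33 and passed the threshold (adjusted p = 0.0461).

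In the fit of all 12 arrays 0 of the 10 genes were called for HGF in controls at an adjusted p under 0.05, where 0.404% of all tested probe sets were; 2 of the 10 (Nr0b2 and Fgfr4) had an unadjusted p under 0.05, as did 19.6% of all. In 4 of the 10 (Nr0b2, Cyp7a1, Fgfr4 and Slc27a5) the HGF arrays all lay below the unstimulated ones, and 23.7% of all tested probe sets did so too. With the control arrays alone 2 of the 10 fell, and 12% of all tested probe sets were called. In the fit without both knockout replicate 2 arrays Nr0b2 was called (adjusted p = 0.0196), with 8.16% of all. With 3 arrays against 3, an exact two-sided permutation test of a single gene cannot go below 0.1.

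Cyp8b1 differed in the other direction. It read 10.58, 10.87 and 10.60 without HGF and 10.64, 11.39 and 11.44 with HGF. HGF replicates 2 and 3 were the highest of all 12 arrays, while replicate 1 lay within the unstimulated range. The difference was 0.47 (SE 0.23, adjusted p = 0.281) and did not pass the threshold. Of the fits tried, only that with array weights, in which HGF replicate 1 had a weight of 0.363, called it (0.66, SE 0.15, adjusted p = 0.0143).

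The enzymes of the alternative pathway gave no call. Cyp7b1 read 11.23, 11.45 and 11.68 without HGF and 9.64, 11.98 and 11.56 with HGF. HGF replicate 1 was the lowest of all 12 arrays for this gene, and the difference of -0.40 (SE 0.55, adjusted p = 0.717) became 0.31 without it. Cyp27a1 read 11.67, 11.60 and 11.69, then 11.61, 11.63 and 11.63 with HGF. It was among the steadiest genes of the table, with an SD of 0.06 over the 12 arrays, lower than in all but 0.449% of tested probe sets, and its interval for the HGF difference ran from -0.22 to 0.17.

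The conjugation enzymes gave no call either. Slc27a5, the bile acid CoA ligase, read 12.38, 12.27 and 12.28 without HGF and 12.19, 12.21 and 12.20 with HGF; the groups did not overlap, but the difference was -0.11 (SE 0.12, adjusted p = 0.639). Baat, which joins the CoA ester to taurine or glycine, read 10.32, 10.20 and 10.28, then 10.71, 10.13 and 10.13 with HGF. HGF replicate 1 of Baat was the highest of the 12 arrays and the other two HGF arrays lay below every unstimulated one, giving a difference of 0.06 (SE 0.18, interval -0.34 to 0.46).

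The receptors did not move together in the controls: Nr1h4 read alike with and without HGF, while Nr0b2, its known target, was lower. Nr1h4 read 9.05, 9.15 and 9.10 without HGF and 9.02, 9.17 and 9.05 with HGF, and these ranges overlapped (difference -0.02, SE 0.28, interval -0.64 to 0.59). Fgfr4 read 5.09, 4.70 and 5.00 without HGF and 4.54, 4.44 and 4.38 with HGF. Its groups did not overlap, but it was dim on every array; the difference was -0.48 (SE 0.16, adjusted p = 0.142, and 0.0608 with the controls alone). Klb read 6.93, 6.67 and 7.31, then 6.67, 6.41 and 6.74 with HGF, which overlapped (difference -0.36, SE 0.30, adjusted p = 0.525).

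Over the 10 genes the median HGF difference in controls was -0.23 and 8 were negative, beside a median of -0.09 over all tested probe sets. The median size without regard to sign was 0.38 for the 10 and 0.20 for all. Markers of other cells moved with the same comparison. The 6 measured neutrophil markers summed to intensities of 43.0 to 99.6 in unstimulated controls and 778 to 2840 in controls given HGF. That rise was mostly S100a8 (3.49 to 5.51 without HGF and 8.20 to 10.08 with HGF) and S100a9 (3.33 to 4.70 and 8.84 to 10.74), the only 2 of the 6 tested. Csf3r was higher but dim (2.59 to 2.84 and 3.35 to 4.12), and Cxcr2 overlapped (3.09 to 4.12 and 3.59 to 4.27). Elane and Ngp stayed below a log2 value of 4 throughout. The sums of the 7 endothelial markers were 1360–1400 without HGF and 1050–1120 with HGF. Those of the 8 Kupffer cell markers were 2410–3570 and 1750–2510, and those of the 7 stellate cell markers 1480–1750 and 1590–1790. Such sums of intensities follow the brightest markers, and single markers differed in direction. Of the endothelial markers 6 had negative differences and 1 was positive, Lyve1 at 2.61 (3.38 to 3.94 without HGF and 5.71 to 7.17 with HGF). Of the Kupffer cell markers 7 were negative and 1 positive, Marco at 2.25 (3.01 to 4.74 and 6.07 to 6.62). The part of these cells in the results was not tested. In whole liver, fewer hepatocytes and less RNA per hepatocyte cannot be told apart. The hepatocyte sums overlapped (81400 to 84700 without HGF and 78100 to 84500 with HGF), but they follow bright markers such as Alb and do not measure hepatocyte number. Of the 7 hepatocyte markers 5 had negative differences, while 2, Tat and Hnf4a, lay higher on every HGF array, as did 14.1% of all tested probe sets.

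**Figure D1:**
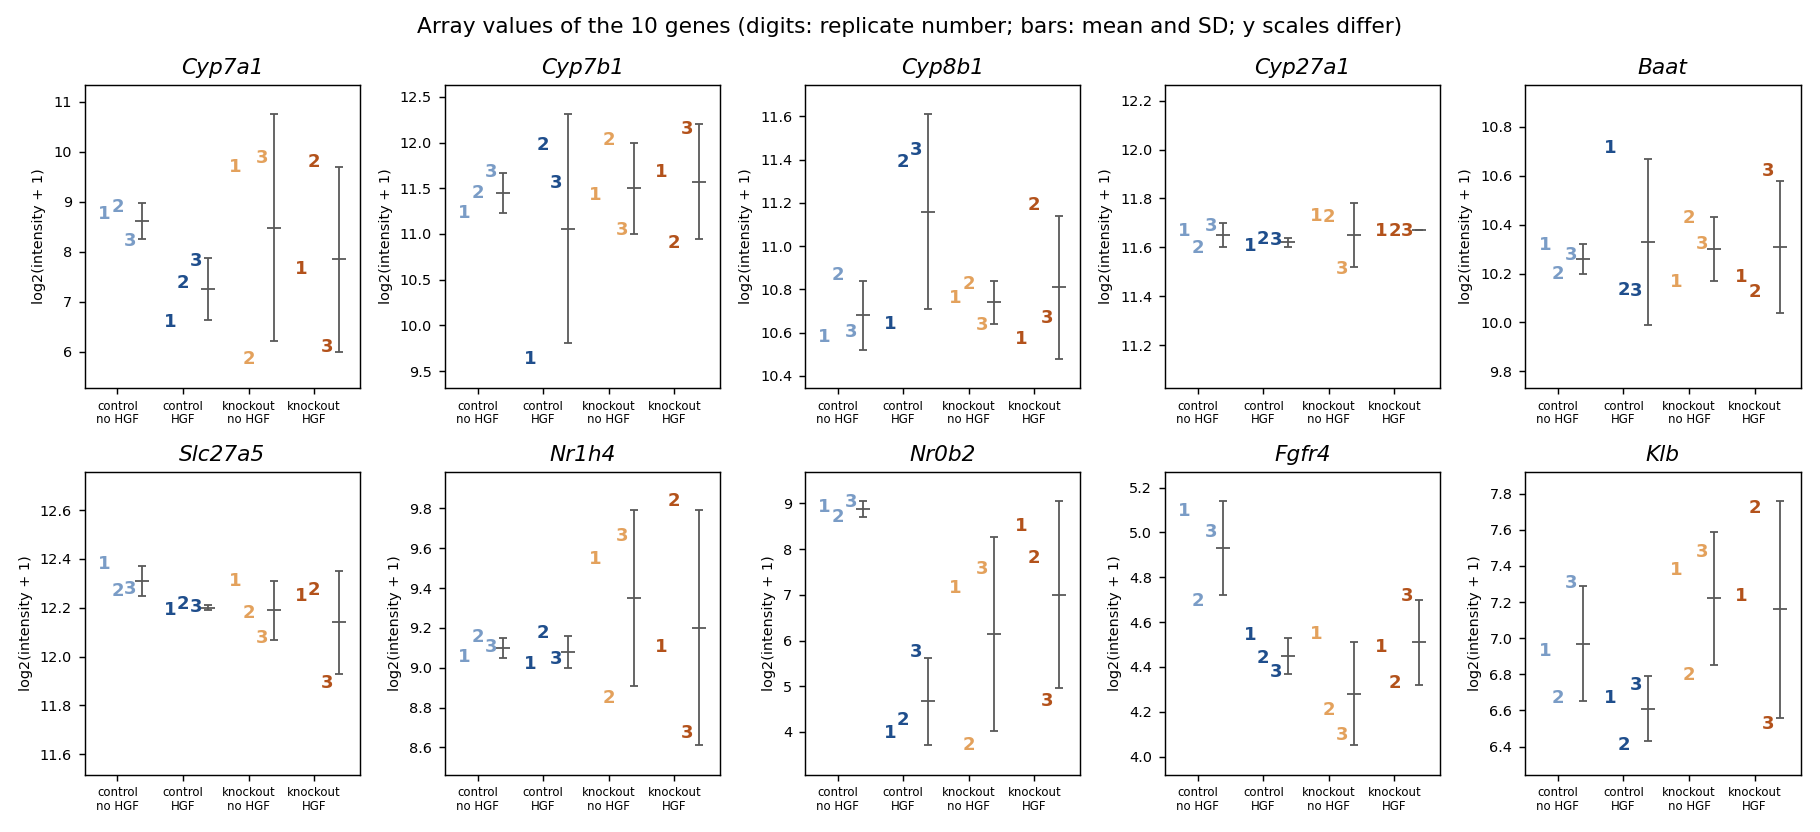
Log2(intensity + 1) of the 10 genes on each of the 12 arrays, by group (x axis); digits are replicate numbers, the horizontal tick and bar are the mean and SD of 3 arrays, and y scales differ between panels. Nr0b2 and Cyp7a1 were lower in all 3 controls given HGF, and in both knockout groups they spread over more than 3 log2 units.

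In the knockout livers HGF gave no call for any of the 10 genes, and 0% of all tested probe sets were called (unadjusted p under 0.05: 0 of the 10, and 1.9% of all). In 0 of the 10 were the knockout groups apart without overlap, as they were for 3.8% of all. Nr0b2 read 7.14, 3.71 and 7.57 without HGF and 8.51, 7.80 and 4.67 with HGF. One array of each group was low, replicate 2 without HGF and replicate 3 with HGF, so the groups overlapped and the difference was 0.86 (SE 1.12, adjusted p = 1). Cyp7a1 read 9.69, 5.87 and 9.88 without HGF and 7.66, 9.79 and 6.10 with HGF. Again replicate 2 without HGF was the lowest array of all, and replicate 2 with HGF was among the 3 highest; the difference was -0.63 (SE 1.09, adjusted p = 1).

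Nr1h4 and Klb spread over the knockout arrays in the same way as Cyp7a1. Nr1h4 read 9.55, 8.85 and 9.66 without HGF and 9.10, 9.84 and 8.67 with HGF. Klb read 7.38, 6.79 and 7.48, then 7.24, 7.72 and 6.53 with HGF. For both genes the 3 highest arrays of the 12 were knockout replicates 1 and 3 without HGF and knockout replicate 2 with HGF, the same 3 as for Cyp7a1.

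The other genes also overlapped between the knockout groups. Cyp7b1 read 11.43, 12.03 and 11.04, then 11.67, 10.90 and 12.14 with HGF, highest on the arrays where Cyp7a1 was lowest. Cyp8b1 read 10.76, 10.83 and 10.64, then 10.57, 11.19 and 10.67 with HGF. Fgfr4 read 4.55, 4.21 and 4.10, then 4.49, 4.33 and 4.71. Of these 3 genes Cyp7b1 had the widest spread. Cyp27a1 read 11.73, 11.72 and 11.51 without HGF and 11.67 on all 3 HGF arrays, the narrowest range of any group among the 10 genes. Baat read 10.16, 10.43 and 10.32, then 10.19, 10.12 and 10.62, and Slc27a5 read 12.31, 12.18 and 12.08, then 12.25, 12.27 and 11.89; both overlapped.

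Without the arrays labelled knockout replicate 2 of both groups, which leaves 2 arrays per knockout group, Cyp7a1 and Nr1h4 were called for HGF in the knockouts. Cyp7a1 then compared 9.69 and 9.88 with 7.66 and 6.10, and fell by 2.91 log2 units, 7.49-fold (SE 0.52, adjusted p = 0.0228). Nr1h4 fell by 0.72 (SE 0.15, adjusted p = 0.04), with 9.55 and 9.66 against 9.10 and 8.67. Nr0b2 was not called: 7.14 and 7.57 stood against 8.51 and 4.67, which bracket them (difference -0.76, SE 1.04, adjusted p = 0.706). In this fit 4.16% of all tested probe sets were called, beside 2 of the 10 genes. The neutrophil genes S100a8 (3.98, adjusted p = 0.0421) and S100a9 (4.36, adjusted p = 0.0244) rose in the same fit, and their part in the result was not tested. The 2 arrays were left out with their values known, and with the remaining 4 knockout arrays fitted alone neither Cyp7a1 (adjusted p = 0.214) nor Nr1h4 (adjusted p = 0.301) was called.

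Knockouts and controls without HGF differed in the ranges of 2 genes. For Nr0b2 the 3 knockout values of 3.71 to 7.57 all lay below the control range of 8.69 to 9.02, a difference of -2.74 (SE 1.12, adjusted p = 0.40), which became -1.52 (SE 0.95, adjusted p = 0.435) without both replicate 2 arrays. For Fgfr4 the knockout values of 4.10 to 4.55 lay below 4.70 to 5.09, a difference of -0.65 (SE 0.16, adjusted p = 0.164). Neither was called, with 0.0599% of all tested probe sets called in this comparison, where both had an unadjusted p under 0.05 along with 10.8% of all, and 12.1% of all showed knockouts entirely below controls. Without both replicate 2 arrays 0 of the 10 and 2.69% of all were called. Cyp7a1, at -0.14 (SE 1.09, adjusted p = 0.976), turned to 1.17 (SE 0.47, adjusted p = 0.235) without the replicate 2 arrays.

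After HGF the knockouts read 4.67 to 8.51 for Nr0b2 and the controls 3.99 to 5.76. Those ranges overlapped, and the difference of 2.32 (SE 1.12, adjusted p = 0.543) was not called. Klb differed by 0.56 (SE 0.30, adjusted p = 0.566) and Cyp8b1 by -0.35 (SE 0.23, adjusted p = 0.624). Without both replicate 2 arrays 0 of the 10 and 0.0299% of all were called, with Nr0b2 at 1.92 (SE 0.95), Klb at 0.28 (SE 0.24) and Cyp8b1 at -0.54 (SE 0.23), while Cyp7a1 went from 0.59 (SE 1.09) to -0.38 (SE 0.47). Cyp27a1 alone did not overlap, at 11.67 on every knockout array against 11.61 to 11.63, a difference of 0.04, where 8.81% of all tested probe sets lay entirely higher. In this comparison, and over both conditions together, 0 of the 10 were called and 0.015% of all tested probe sets; unadjusted p-values under 0.05 were found for 0 of the 10 (9.58% of all) after HGF and for 1, Fgfr4 (9.38% of all), over both conditions. Over both conditions the differences nearest to a call were Fgfr4, at -0.29 (SE 0.11, adjusted p = 0.424), and Klb, at 0.40 (SE 0.21, adjusted p = 0.568). Without both replicate 2 arrays they were at -0.23 (SE 0.12) and 0.37 (SE 0.17), and 0 of the 10 and 0.853% of all were called.

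Whether HGF acted differently in the 2 genotypes was tested as an interaction. For Nr0b2 the HGF difference was 5.06 log2 units higher in knockouts than in controls (SE 1.58, interval 1.55 to 8.58, adjusted p = 0.359), and for Fgfr4 0.70 higher (SE 0.22, adjusted p = 0.358). None of the 10 was called, and 0% of all tested probe sets were, although 2 of the 10 and 10.8% of all had an unadjusted p under 0.05. Without both replicate 2 arrays 0 of the 10 and 0.359% of all were called; Nr0b2 was then at 3.44 (SE 1.34, adjusted p = 0.332), and Cyp7a1 went from 0.73 (SE 1.54) to -1.55 (SE 0.67, adjusted p = 0.375). The intervals were wide for Nr0b2 and for Cyp7a1 (-2.69 to 4.15) and narrow for Cyp27a1 (-0.24 to 0.32), Slc27a5 (-0.31 to 0.42) and Baat (-0.62 to 0.51).

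Estimated array weights, which ranged from 0.243 (knockout replicate 2 without HGF) to 2.83 (knockout replicate 1 with HGF), gave more calls over the whole table. For HGF in controls 3 of the 10 were called (Cyp8b1 higher, Nr0b2 and Fgfr4 lower), with 20.2% of all tested probe sets. Fgfr4 was called lower in knockouts without HGF (9.53% of all called), Cyp8b1 lower in knockouts with HGF (4.34% of all), and Nr0b2 in the interaction (4.84, SE 0.99, adjusted p = 0.0313; 4.01% of all).

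**Figure D2:**
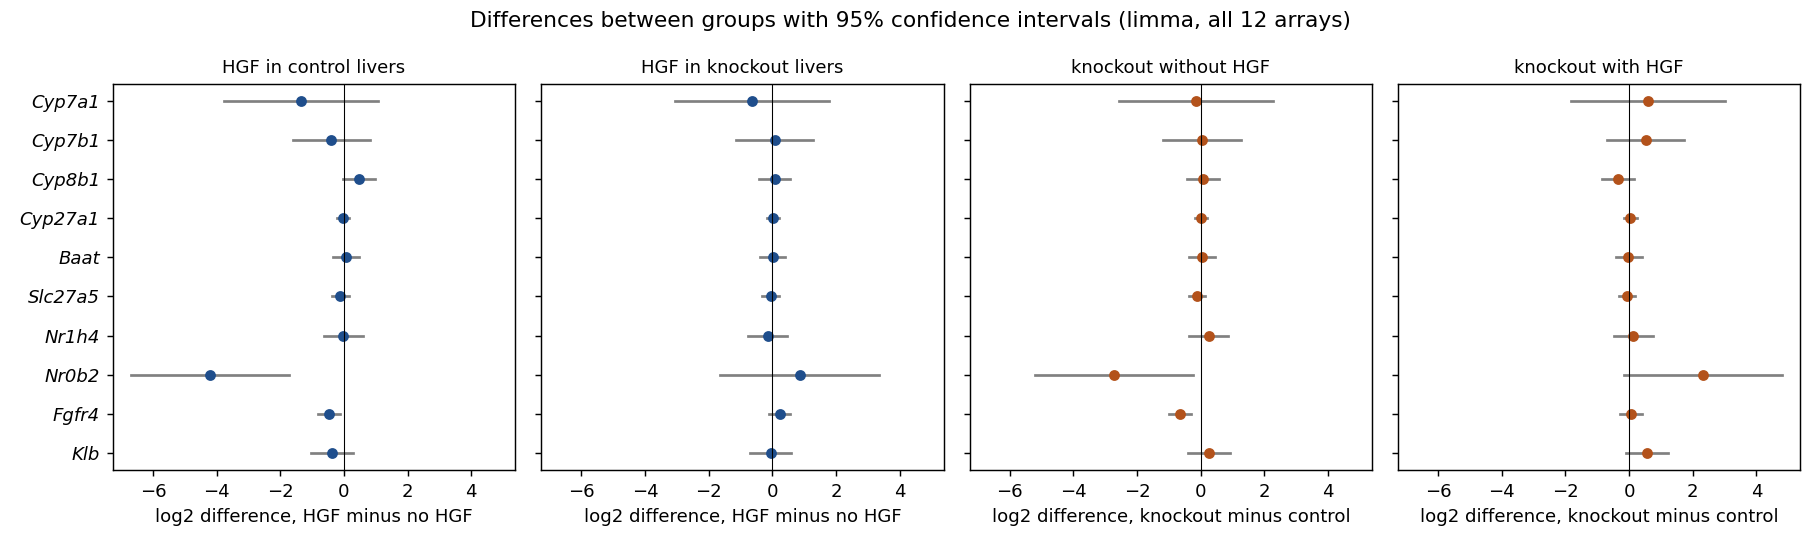
Differences between groups in log2 units (x axis) for the 10 genes (y axis), with 95% confidence intervals from the limma fit of all 12 arrays; the first 2 panels give HGF minus no HGF, the last 2 knockout minus control. Nr0b2 has the widest intervals with Cyp7a1, and the point for Nr0b2 goes from -4.20 in controls to 0.86 in knockouts, while those of Cyp27a1, Baat and Slc27a5 stay within 0.12 of 0.

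Across the 12 arrays the 10 genes fell into a steady and a variable set. Nr0b2 (SD 2.07) and Cyp7a1 (SD 1.40) varied more than 99.3% and 98.2% of tested probe sets. Cyp7b1 followed with an SD of 0.67 and Klb with 0.42. Nr1h4 (0.34), Cyp8b1 (0.32) and Fgfr4 (0.30) were a little above the median SD of 0.24, and Baat (0.20), Slc27a5 (0.13) and Cyp27a1 (0.06) were below it.

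The arrays with low Nr0b2 were those with high Tnfaip3. The 5 lowest Nr0b2 arrays (the 3 controls given HGF, knockout replicate 2 without HGF and knockout replicate 3 with HGF) were the 5 highest for Tnfaip3, and also the 5 highest for S100a8, a neutrophil gene, and for Cebpb and Nr5a2. The neutrophil marker sums ran from 49.4 to 1260 in knockouts without HGF and from 32.9 to 1250 with HGF. Knockout replicate 1 with HGF was between: Tnfaip3 was 3.74 there and Nr0b2 8.51, while Cxcl1 was 10.94 and Socs3 8.66. On that array 5 of the 14 inflammatory genes (Cxcl1, Socs3, Junb, Egr1 and Il1b) were nearer to the HGF-treated controls and 9, such as Cxcl2 (2.66), Saa3 (7.66) and Atf3 (3.34), nearer to the unstimulated ones. Of the 5 lowest Cyp7a1 arrays 4 were among those 5, as were 4 of the 5 lowest Klb arrays.

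The arrays with high Cyp7a1 were those with high Dbp, a clock-controlled factor known to bind D-boxes and to activate Cyp7a1. Dbp read 10.72, 2.92 and 10.72 in knockouts without HGF and 5.09, 11.05 and 2.81 with HGF, against 5.91 to 7.50 in unstimulated controls and 2.61 to 5.21 in controls given HGF. The 3 arrays at 10.72 to 11.05 were the 3 highest for Cyp7a1, Nr1h4 and Klb. On the other 9 arrays the order was less close, as in controls given HGF, where replicate 1 had the highest Dbp and the lowest Cyp7a1. Among the 6 control arrays Cyp7a1 and Dbp had a Pearson r of 0.48, and among the 6 knockout arrays 0.99. Such a close r was not particular to Dbp. With Cyp7a1, Nr2f2 had an r of 0.75 in controls and 0.99 in knockouts. S100a8 had -0.79 and -0.99, and Tnfaip3 -0.85 and -0.94. All these genes were read on the same arrays and share their groups, so this is a description. No source used here gives the time of day at which livers were taken, and the part of the clock in these values was not tested.

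**Figure D3:**
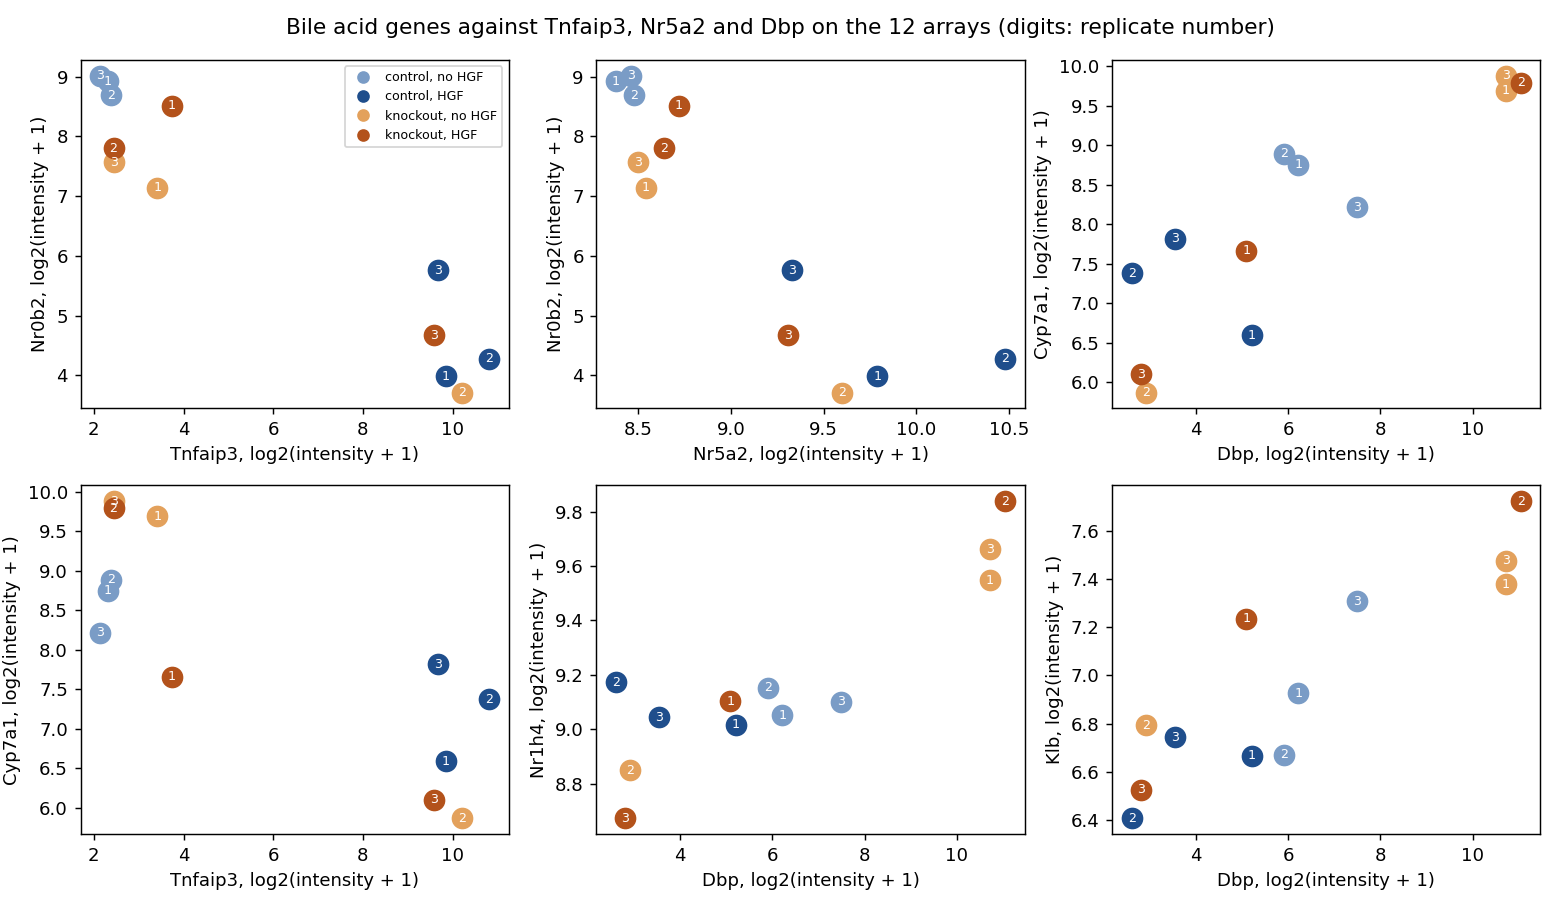
Log2(intensity + 1) of Nr0b2, Cyp7a1, Nr1h4 and Klb (y axes) against Tnfaip3, Nr5a2 and Dbp (x axes), 1 point per array, coloured by group with the replicate number in it. The 5 arrays with Nr0b2 under 6 lie at Tnfaip3 above 9, and the 3 arrays with Dbp above 10 have the highest Cyp7a1, Nr1h4 and Klb.

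The receptors and cofactors that act on bile acid genes were examined as a list of 28, of which 23 were measured and 18 tested. In the fit of all 12 arrays 0 of the 18 were called for HGF in controls, with a median difference of 0.09 beside -0.09 over all tested probe sets. With the control arrays alone, where 12% of all tested probe sets were called, 4 rose and 2 fell. Nr5a2, the LRH-1 whose core motif the Nr0b2 and Cyp8b1 promoters hold, read 8.38, 8.48 and 8.46 without HGF and 9.79, 10.48 and 9.33 with HGF. All HGF arrays were higher, by 1.43 (SE 0.34, adjusted p = 0.09 with all arrays and 0.0204 with controls alone).

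Cebpb, an acute-phase factor, was higher by 2.46 in controls given HGF (SE 0.56, adjusted p = 0.0801 with all arrays and 0.000439 with controls alone). Sirt1, a deacetylase known to act on FXR, was 0.85 higher (adjusted p = 0.0801 and 0.0461), and Zfp36l1, an RNA-binding protein known to target Cyp7a1 mRNA, 0.94 higher (adjusted p = 0.282 and 0.0283). Foxa2, a hepatocyte transcription factor, was lower at -2.41 (adjusted p = 0.127 and 0.0198), and Nr2f2, an orphan receptor that binds the Cyp7a1 promoter, at -1.19 (adjusted p = 0.328 and 0.0114). The 5 arrays with the lowest Foxa2 and Nr2f2 were the same 5 as for Nr0b2. Rxra, the partner of FXR, and Hnf4a were not called in any of these fits.

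**Figure D4:**
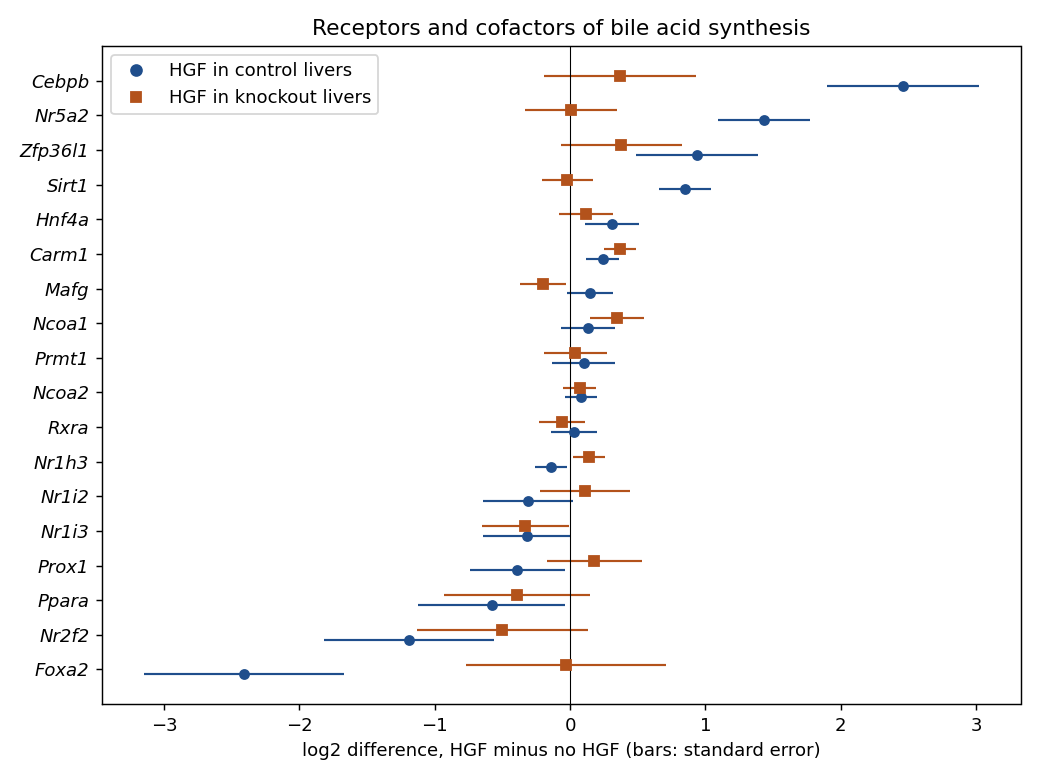
Differences with HGF in log2 units (x axis, HGF minus no HGF) for the 18 tested receptors and cofactors of bile acid synthesis (y axis), in control livers (circles) and knockout livers (squares); bars are standard errors from the fit of all 12 arrays. Cebpb, Nr5a2, Zfp36l1 and Sirt1 lie highest in controls and Foxa2 lowest, and no gene was called in that fit.

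The other enzymes of bile acid synthesis gave no call. Of 18 listed, 16 were measured and 13 tested, and this held for HGF in controls both with all 12 arrays and with the controls alone. Their median difference was -0.11, with 11 of 13 negative, beside -0.09 over all. Akr1c6 had the smallest p, at -0.28 (SE 0.11, adjusted p = 0.186), followed by Hsd3b7, which oxidises the sterol ring, at -0.22 (SE 0.14) and Amacr, the racemase of side-chain shortening, at -0.27 (SE 0.18).

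Genes known as FXR targets in hepatocytes gave no call either. Of 14 listed, 12 were measured and 9 tested. For HGF in controls their median was -0.19, with 8 of 9 negative, beside -0.09 over all tested probe sets. What these differences say about FXR activity was not tested. Pltp, a phospholipid transfer protein, was at -0.41 (SE 0.22, adjusted p = 0.329), Abcb11, the bile salt export pump, at -0.21 (SE 0.12, adjusted p = 0.375) and Sdc1 at -0.23 (SE 0.22). None of these differences was near the size of that of Nr0b2.

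FGF receptor and ERK or JNK signalling genes gave 0 calls among 11 tested of 17 measured and 23 listed, and 1 with the controls alone: Jun rose by 2.53 (SE 0.67 with all arrays, adjusted p = 0.103, and 0.0102 with controls alone). Of 10 tested clock regulators (13 measured, 14 listed) 0 were called with all arrays. With the controls alone Nfil3, a repressor at D-boxes, rose by 0.78 (adjusted p = 0.0128) and Nr1d1 fell by 1.78 (adjusted p = 0.0134), while Dbp, at -2.75, was not called (adjusted p = 0.0524). In the knockouts without both replicate 2 arrays, where Cyp7a1 and 4.16% of all were called, 3 clock genes rose with HGF and 4 fell, and with the same 4 knockout arrays fitted alone 0% of all tested probe sets were called. In the first of these fits Arntl rose by 2.85 (limma adjusted p = 0.000776) and Dbp fell by 6.77 (limma adjusted p = 0.00973). Arntl read 2.59 to 2.82 on the 3 arrays with the highest Dbp, knockout replicate 2 with HGF among them. Every other array read 4.84 to 5.76 for Arntl, and in controls its HGF difference was 0.02. Inflammatory and acute-phase genes, all 12 tested of 14, were higher in all controls given HGF, as were 14.1% of all tested probe sets. Junb (4.46, adjusted p = 0.0338) and Atf3 (2.79, adjusted p = 0.0418) were called with all arrays, and 11 of the 12 with the controls alone. For HGF in controls 0.404% of all tested probe sets were called with all arrays and 12% with the controls alone.

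For 5 of the genes the tested genes whose log2 values followed them best over the 12 arrays were looked up by Pearson r, as a description. For Nr0b2 these were Stambp (0.98), D630039A03Rik (0.97), Ppp1r3c (0.96) and Mrm2 (0.95), and the most opposed were Tmem140 and Birc3 (both -0.98). For Cyp7a1 they were Rilp, Cfap20, Angel2 and C920006O11Rik (all 0.96), with Hip1r (-0.98) and Il4ra (-0.97) opposed. For Klb they were Vps26c and Prkacb (both 0.94) with Rnf4 and Ing1 (both 0.93), against BC023105 (-0.95) and Ifit1 (-0.94). Cyp7b1 was followed by Cr1l (0.92), C6 (0.91), Rexo2 and Spcs3 (both 0.90) and opposed by Prpf39 (-0.95) and by Cyp39a1 (-0.90), another oxysterol 7α-hydroxylase. Cyp8b1 was followed less closely, by Oga (0.87), Lpar6 (0.85), Cox6a1 (0.84) and Prpf19 (0.83), and opposed by H1f2 (-0.92) and Zfp35 (-0.90).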

How the data were processed

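Per the submitters' processing notes the arrays were summarised with GCRMA; its version and the genome build are not given in the sources used here. The deposited values are intensities on a linear scale, read as such from the values; GCRMA compresses signals near background and brings arrays to one distribution. The deposited intensities were put on a log2 scale with a pseudocount of 1. Of 16539 probe sets 64 are controls; of the other 16475, 15780 have 1 symbol, 0 several and 695 none, and the RefSeq table changed 0 symbols. Probe sets with a log2 value of at least 4 on 3 arrays were tested (6683) with limma 3.58.1 in R 4.3.3. The fit had 4 group means and 8 residual degrees of freedom. It was tried on simulated data with the same spread for every gene and group. That trial does not cover unequal spreads, such as those of Nr0b2 (SD 0.17 in unstimulated controls and 2.12 in knockouts without HGF). P-values were adjusted by Benjamini-Hochberg over all tested probe sets, and a call is an adjusted p under 0.05.

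The 10 genes, the lists and the arrays left out were chosen with earlier results of these data known. Named genes were the 10, the called genes of each list or otherwise its 3 smallest p-values, and genes whose levels stand beside a result. For 5 of the 10, the 4 genes with the highest and the 2 with the most negative Pearson r were also named. Same-numbered arrays of a genotype had consecutive array numbers, the one without HGF first. Their deviations from the group means correlated with r of 0.10, 0.18 and 0.05 in controls, where differently numbered arrays gave -0.18 to 0.07. In knockouts the same-numbered arrays gave 0.12, -0.83 and -0.70, and differently numbered arrays gave -0.69 to 0.85. The knockout group means include both replicate 2 arrays, whose labels are in question, so whether the numbers pair the arrays could not be settled. Motif and marker searches used no test.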

Additional observations from a re-analysis of the deposited data

How the results depend on the processing

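None of the 1274 alternative values of single genes changed sign while called in either fit; 90 had the other sign without a call. The count of called genes for HGF in controls, 0 of 10, became 3 with array weights (Cyp8b1, Nr0b2 and Fgfr4), 2 with the 2 groups alone (Cyp7a1 and Nr0b2), 1 without both knockout replicate 2 arrays (Nr0b2), and 0 to 1 when single arrays were left out (Nr0b2 without knockout replicate 2 without HGF, adjusted p = 0.0303). For HGF in knockouts it became 2 without both replicate 2 arrays, and 0 with the 4 remaining knockout arrays alone, a fit added after seeing the data. Array weights gave 1 for knockouts without HGF (Fgfr4, adjusted p = 0.0494), 1 for knockouts with HGF (Cyp8b1, adjusted p = 0.0482) and 1 for the interaction (Nr0b2, adjusted p = 0.0313). Another pseudocount, filter, scaling or variance model left all these counts at 0. The adjusted p of Nr0b2 for HGF in controls ran from 0.00202 to 0.326 and that of Cyp7a1 from 0.0461 to 0.725, with the sign kept in all 22 alternatives. Over all tested probe sets the 27 calls for HGF in controls became 801 with the 2 groups alone, 1353 with array weights, 545 without both replicate 2 arrays, 41 with a pseudocount of 16, 13 without a filter, and 0 to 317 when single arrays were left out. With the replicate block, which treats same-numbered arrays as pairs, they became 0 and Nr0b2 was at -4.20 (SE 1.21, limma adjusted p = 0.326). Whether the numbers pair the arrays is not settled, and not every array correlated best with its own number. The cause of these changes was not tested, apart from the smaller spread in fits without the knockout arrays. Fgfr4 and the HGF values of Nr0b2 lie near background, which limits the size of their differences.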

Other observations

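The Met probe set followed the same arrays as Nr1h4. Met read 7.06, 6.68 and 7.18 in knockouts without HGF and 6.61, 7.40 and 6.29 with HGF, against 6.59 to 7.02 over the 6 control arrays. Its 3 highest arrays were the 3 highest of Dbp, Cyp7a1, Nr1h4 and Klb, and its lowest was knockout replicate 3 with HGF, which was also the lowest for Nr1h4. Over both conditions Met differed between genotypes by 0.10 (SE 0.18, limma adjusted p = 0.872). The Hgf probe set stayed mostly below a log2 value of 4 and was not tested, with means of 3.52 and 3.38 in controls and 3.93 and 3.58 in knockouts, without and with injected HGF.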
